A study of Mus musculus with 425 samples.

Results

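Repeat-derived small RNAs are short reads that match transposable elements and other repeated sequence of the genome. They were taken here as every row of the deposited sperm and epididymis small RNA tables whose type is rmsk (RepeatMasker annotation), 313 of 2343 rows, the others being 1123 miRNA, 467 piRNA, 435 tRNA and 5 rRNA rows. The rows were sorted by the start of their names into RLTR (146 rows), ERVB (22), IAP (20), MLTR (16), RMER (15), MERVL and ORR1 (7) and remaining LTR (27), all long terminal repeat elements; L1Md (25) and other L1 and Lx (20), both LINE-1; SINE B1 (2) and SINE B2 (1); satellites (7); structured RNA (1, BC1); and others (4). Of the 313 rows, 31 had no read in any library used and 282 had at least 1.

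The study removed Dgcr8, which works with Drosha to cut miRNA precursors in the nucleus, from germ cells or from the epididymis of male mice, to ask how sperm small RNAs depend on each. The 73 libraries used here, 32 of sperm and 41 of epididymis, formed 16 groups. In the Stra8 line, cKO males were Dgcr8fl/fl; Stra8-iCre and controls Dgcr8+/fl; Stra8-iCre, with a Cre known to act in male germ cells. In the Defb41 line, cKO males were Dgcr8fl/fl; Defb41-iCre (spelled Defb-iCre for sperm) and controls Dgcr8+/fl; Defb41-iCre, with a Cre known to act in the epididymal epithelium. Controls of both lines therefore also carried the Cre and 1 floxed Dgcr8 allele. Each line gave cauda sperm (from the end of the epididymis) and testis sperm, with 4 libraries for each genotype, and cauda and caput (end and head) epididymis tissue. Stra8 tissue had 8 cKO and 6 control libraries for cauda and 7 of each for caput; Defb41 tissue had 3 cKO and 4 control libraries for cauda and 3 of each for caput. The age of the males is not given in the labels used here. Nothing in them states that each library of a group is a different animal, so a p-value here weighs a difference against library-to-library spread only, part of which may be technical.

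Transposable elements copy themselves through RNA (LINEs, SINEs and LTR retrotransposons), and the germline holds them down by DNA methylation, histone marks and piRNAs, small RNAs of the Piwi pathway that guide the cutting and silencing of element transcripts. LTR elements are relics of retroviruses: the internal part holds the viral genes (marked by I in LTR row names such as RLTR4I_MM and IAPLTR1a_I_MM) and the flanking LTR drives transcription. Small RNA reads on such rows can be piRNAs, other processed small RNAs or fragments of longer transcripts, and the tables do not separate these.

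Libraries held between 615991 and 38690140 reads (median 8834900), and repeat rows took between 0.00458% and 1.93% of them. The total of the repeat rows differed from the repeat total in a separate table of RNA classes, being 0.135 to 1.5 times that total (median 0.858), so levels of repeats carry this uncertainty. Several libraries stood apart. Defb41 control cauda epididymis replicate 2 had 45.8 RPM (reads per 1000000 reads of the library) on repeat rows against 339 RPM in the class table. Defb41 control caput epididymis replicate 2, with the 615991 reads, had 35.9% piRNA reads and 2011 RPM on repeat rows. Stra8 control caput epididymis replicates 1 and 2 (2662 and 2367 RPM) were above the other control caput libraries of their line. Stra8 cKO cauda sperm replicate 4 (4959 RPM) was above the other 3 cKO cauda sperm libraries of that line. The labelled sources were checked with miRNAs known to mark cell types, of which 5 of 7 blood-cell, 5 of 5 epithelial and 6 of 7 muscle markers were in the tables and none was at 0 throughout a group. Their summed levels for blood cells ran from 178 to 1234 RPM in cauda sperm and from 3562 to 35430 RPM in testis sperm. For epithelium they ran from 1133 to 6921 RPM in cauda sperm and from 32.5 to 1188 RPM in testis sperm. Muscle markers ran from 1909 to 13776 RPM in cauda sperm, 2973 to 37134.5 RPM in testis sperm and 26664 to 450186 RPM in epididymis tissue. Testis sperm thus reached into the tissue range for muscle markers. Reads per row depend on the length and copy number of an element, which the tables do not give, so levels of different rows are reads and not amounts per length. In these bulk libraries fewer cells of a type and less RNA per cell cannot be told apart.

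The sum over all repeat rows was highest in Defb41 testis sperm. In Defb41 testis sperm it was 13560, 12388, 15670 and 7330 RPM in cKO libraries and 19307, 11236, 10392 and 9740 RPM in control libraries. In Defb41 cauda sperm it was 5233, 4049, 3829 and 4805 RPM in cKO libraries and 5693, 3340, 1630 and 4752 RPM in control libraries. Every Defb41 cauda sperm library was below every Defb41 testis sperm library of either genotype. In Stra8 testis sperm the sum was 867, 962, 878 and 750 RPM in cKO libraries, all below the 2218, 1383, 982 and 1087 RPM of control libraries (overlapping without the RLTR4 rows described below). In Stra8 cauda sperm it was 1061, 489, 1354 and 4959 RPM in cKO libraries and 792, 288, 1494 and 1310 RPM in control libraries, and these overlapped with each other and with testis sperm. Epididymis tissue ranged from 154 to 2662 RPM in the Stra8 line and from 45.8 to 2011 RPM in the Defb41 line. Line and library preparation cannot be told apart in this difference between Defb41 and Stra8 sperm. It was present in the class table too, where testis sperm of both genotypes had 9361 to 23099 RPM in the Defb41 line and 826 to 2564 RPM in the Stra8 line.

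**Figure D1:**
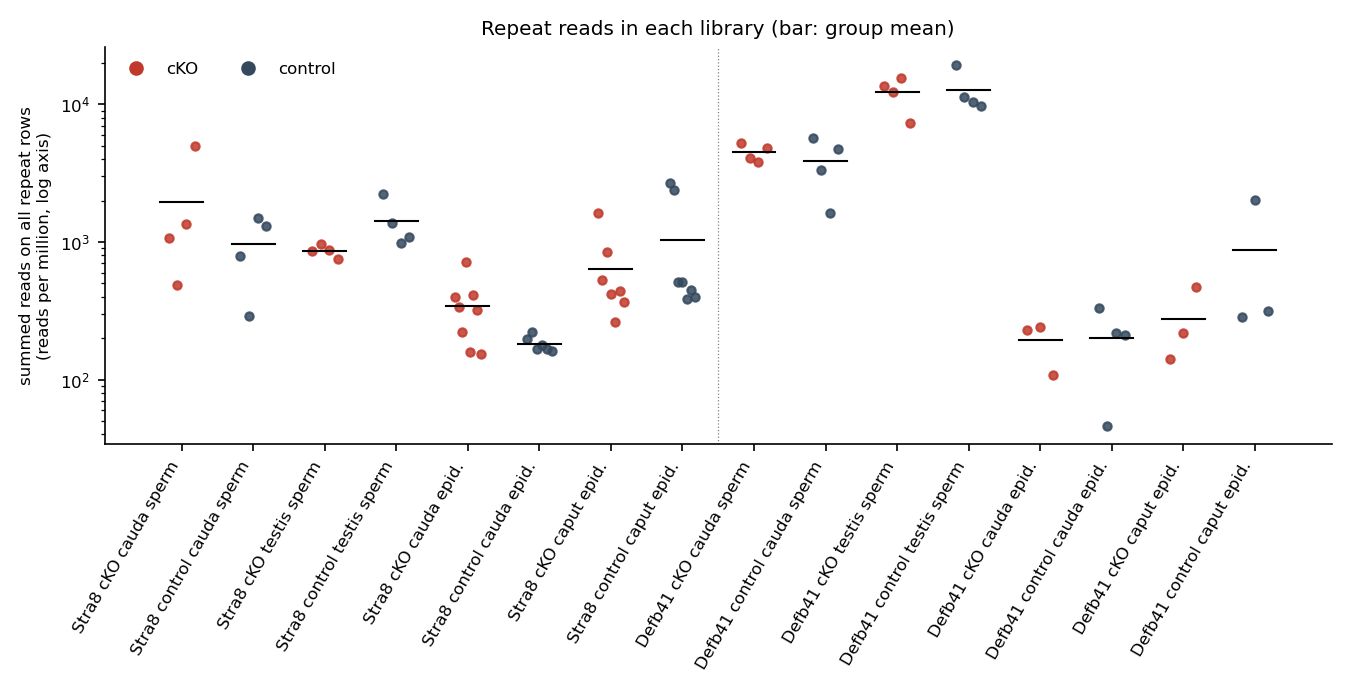
Summed reads on the 313 repeat rows in each library, in RPM on a log axis; each point is a library and each bar a group mean. Defb41 sperm libraries lie between 1630 and 19307 RPM, and epididymis libraries between 45.8 and 2662 RPM.

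A large share of the repeat reads outside Defb41 testis sperm lay on RLTR4I_MM and RLTR4_MM, the internal part and the LTR of endogenous murine leukaemia viruses (class ERV1 in the row names). These 2 rows held 14.5% to 95.5% of repeat reads in the 16 Stra8 sperm libraries, 1.28% to 51.7% in the 16 Defb41 sperm libraries and 3.84% to 93.8% (median 78.6%) in the 41 epididymis libraries. RLTR4I_MM led the rows in 14 of the 16 groups. The exceptions were Defb41 cKO testis sperm, led by IAPLTR3_I at a mean of 1580 RPM, and Defb41 control testis sperm, led by IAPLTR1a_I_MM at 1391 RPM, both internal parts of intracisternal A particle (IAP) elements. Without the RLTR4 rows, the repeat sum was 139 to 236 RPM in Stra8 cauda sperm against 641 to 1563 RPM in Stra8 testis sperm, and these no longer overlapped. Within Stra8 testis sperm that sum was 712, 770, 747 and 641 RPM in cKO libraries and 1563, 1001, 715 and 694 RPM in control libraries. The genotypes thus overlapped there, unlike in the full sum.

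Ranked by the mean of the 16 group means, the 12 leading rows were RLTR4I_MM (417 RPM), IAPLTR3_I (169), IAPLTR1a_I_MM (169), B1 (130), IAPEZI (112), MERVL (89.8), RLTR4_MM (72.6), RLTR6I_MM (58.7), ERVB4_2-I_MM (51.8), B1F (46.9), B2 (46.8) and MMERVK10C (44.0). IAPEZI is the internal part of IAP elements that still transpose in mice. MERVL is an endogenous retrovirus known for a burst of transcription in the early cleavage embryo. B1 and B1F are SINEs derived from the RNA of the signal recognition particle, and B2 is a SINE derived from a tRNA. ERVB4_2-I_MM and MMERVK10C carry the class ERV2 in their row names.

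Several of these rows had their highest levels in Defb41 testis sperm. B1 stood at 116, 118, 101 and 217 RPM in Defb41 cKO cauda sperm and 279, 164, 80.7 and 222 RPM in control cauda sperm. In Defb41 testis sperm it stood at 653, 764, 915 and 567 RPM in cKO libraries and 1114, 1185, 1039 and 811 RPM in control libraries. It reached 1.09 RPM at most in the 16 Stra8 sperm libraries and was at 0 in all 13 Defb41 epididymis libraries. MERVL showed the same layout, with 55.8, 39.1, 25.5 and 69.5 RPM in Defb41 cKO cauda sperm and 151, 60.1, 27.9 and 85.8 RPM in control cauda sperm. In Defb41 testis sperm MERVL had 591, 569, 533 and 383 RPM in cKO libraries and 1137, 690, 764 and 550 RPM in control libraries. It had at most 3.45 RPM in any Stra8 sperm library. The number of repeat rows with at least 1 RPM in every library of a group was 224 in Defb41 cKO and 204 in Defb41 control testis sperm, 139 and 147 in Defb41 cauda sperm, 38 and 33 in Stra8 testis sperm, 19 and 15 in Stra8 cauda sperm (cKO and control in each pair), and 5 to 12 in the epididymis groups.

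Shares of repeat reads by family differed between cauda and testis sperm of the Defb41 line. IAP rows held 10.9 ± 2.88% in cKO cauda sperm against 31.6 ± 9.12% in cKO testis sperm, and 15.9 ± 4.19% in control cauda sperm against 30.7 ± 2.86% in control testis sperm (SD, n = 4 each). L1Md rows, the younger mouse LINE-1 families, held 25.4 ± 5.72% in cKO cauda sperm against 15.1 ± 3.01% in cKO testis sperm, and 22 ± 2.10% in control cauda sperm against 14.4 ± 3.03% in control testis sperm. IAP therefore took the larger share in testis sperm and L1Md in cauda sperm, in both genotypes.

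**Figure D2:**
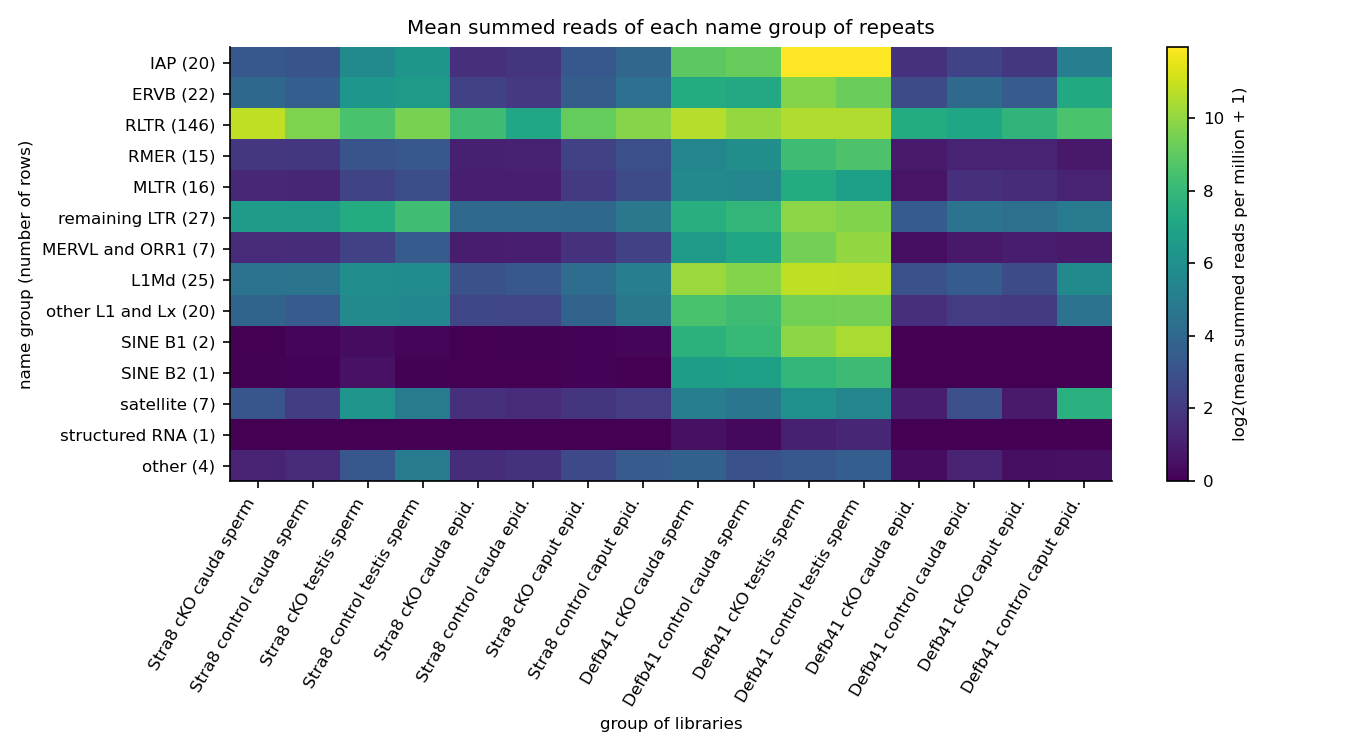
Mean summed reads of each name group in the 16 groups of libraries, as log2(mean RPM + 1), with the number of rows in brackets. SINE, IAP, MERVL and LINE-1 rows are bright in Defb41 sperm, and RLTR is the brightest group in epididymis tissue, with the RLTR4 rows holding a median of 78.6% of repeat reads there.

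Cauda and testis sperm were compared within each line and genotype, to ask which repeat reads differ after passage through the epididymis. Counts of all rows were tested with edgeR's quasi-likelihood test, with reads scaled to the table total and Benjamini-Hochberg adjustment over all rows tested, at an adjusted p of 0.05. Most repeat rows that passed were lower in cauda sperm, and a few RLTR rows were higher. In Stra8 cKO sperm 2 rows rose and 34 fell of 46 tested, where 78% of all 1107 rows passed in either direction, 28.5% higher and 49.5% lower. In Stra8 control sperm 1 row rose and 28 fell of 38 tested, where 72.7% of all 1178 rows passed, 19.2% higher and 53.5% lower. The share of repeat rows called in the Stra8 line was thus near the background of all rows, with more of them on the lower side. In Defb41 cKO sperm 3 rows rose and 122 fell of 273 tested, beside 42.9% of all 2042 rows (9.11% higher, 33.8% lower). In Defb41 control sperm 2 rose and 85 fell of 252, beside 46.5% of all 1745 rows (17.7% higher, 28.9% lower).

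The median log2 change of the repeat rows tested was −2.20 in Stra8 cKO, −2.71 in Stra8 control, −1.47 in Defb41 cKO and −1.44 in Defb41 control sperm. Over all rows tested it was −1.03, −1.68, −1.16 and −0.96 in the same order of groups. The makeup of the libraries differed at the same time: tRNA reads were 48.5% to 86.6% of cauda sperm libraries and 0.782% to 10.8% of testis sperm libraries, and piRNA reads 0.352% to 8.79% of cauda and 26.4% to 54.6% of testis sperm libraries. In the same fits 437 of 455 piRNA rows fell in Stra8 cKO, 450 of 454 in Stra8 control, 338 of 460 in Defb41 cKO and 303 of 458 in Defb41 control sperm. With TMM composition factors in place of the table total, the median of all rows moved to −0.18 in Stra8 cKO, 0.24 in Stra8 control, −0.05 in Defb41 cKO and 0.02 in Defb41 control sperm. The calls then were 7 higher and 21 lower, 6 and 13, 13 and 74, and 9 and 71 in that order. Scaled to the repeat total, which centres the repeat rows on each other in every library, they were 2 higher and 34 lower, 2 and 23, 16 and 44, and 47 and 32. Some rows passed the filter on low counts through testis sperm alone, where they were high: 10 of 46 in Stra8 cKO, 6 of 38 in Stra8 control, 1 of 273 in Defb41 cKO and 5 of 252 in Defb41 control sperm reached 10 counts in no cauda sperm library. The counts and medians describe the rows that passed and are no evidence of direction for all repeats.

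IAP rows were among those that fell. In the Defb41 line 14 of 19 IAP rows tested fell in cKO sperm (median of the rows tested −2.48) and 13 of 17 in control sperm (−2.56). In the Stra8 line 5 of 6 fell in cKO sperm and 6 of 6 in control sperm. Of these, 1 in cKO and 2 in control sperm reached the minimum count of the filter in no cauda sperm library. Those rows entered through testis sperm, where they were high, so their fall follows in large part from the filter. Of all rows tested in the Stra8 line, 49.5% were called lower in cKO and 53.5% in control sperm. IAPLTR1a_I_MM had 143, 103, 87.7 and 142 RPM in Defb41 cKO cauda sperm against 1132, 1067, 1093 and 748 RPM in cKO testis sperm. In Defb41 controls it had 267, 104, 71.4 and 186 RPM in cauda sperm against 1982, 1240, 1355 and 988 RPM in testis sperm. The groups did not overlap, and the log2 change was −3.09 (SE 0.57, adjusted p 2.46e-05) in cKO and −3.15 (SE 0.58, adjusted p 1.47e-06) in control sperm. IAPLTR1a_MM, an IAP LTR, was among the largest falls in both, at −5.15 (SE 0.60) in cKO and −4.94 (SE 0.74) in control sperm, with 0.964 to 4.19 RPM in cKO cauda sperm against 64.9 to 99.4 RPM in cKO testis sperm. IAPLTR1_Mm, another IAP LTR, fell by 3.61 in cKO sperm (SE 0.57, adjusted p 1.56e-06) and by 3.41 in control sperm (SE 0.75, adjusted p 5.14e-05), and its cauda and testis sperm libraries did not overlap in either genotype.

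In the Defb41 line LINE-1 rows moved less. In Defb41 cKO sperm 2 of 25 L1Md rows and 7 of 20 other L1 and Lx rows fell, with medians of −0.66 and −1.11; in Defb41 control sperm 2 of 25 and 6 of 20 fell, with medians of −0.97 and −1.16. L1MdA_II, of the A subfamily of young LINE-1, had 64.9, 42.8, 31.5 and 46.8 RPM in Defb41 cKO cauda sperm and 60.7, 77.5, 61.0 and 42.9 RPM in cKO testis sperm, and these overlapped. The medians of the L1Md rows stood beside −1.16 (cKO) and −0.96 (control) for all rows tested, and those of the IAP rows lay below both. The difference between the 2 families was not tested. In Stra8 cKO sperm L1MdF_IV, L1MdF_V, L1MdFanc_I, L1MdMus_I, L1MdTf_I and L1MdTf_II fell, as did L1B_MM, LX2B and LX5. L1MdF_II, L1MdGf_I, L1MdTf_III, L1MdV_I and L1Lx_IV did not pass there. In Stra8 control sperm L1MdV_I, L1MdV_II and LX2B fell, and L1MdGf_I, L1MdTf_I, L1MdTf_II, L1MdTf_III and L1Lx_IV did not pass. In cKO sperm 1 L1Md row and 2 other L1 and Lx rows reached 10 counts in no cauda sperm library.

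MERVL fell in Defb41 sperm by 3.45 on the log2 scale in cKO (SE 0.58, adjusted p 5.54e-06) and by 3.27 in control libraries (SE 0.60, adjusted p 1.22e-06), with no overlap between cauda and testis sperm. B1 fell by 2.39 in cKO (adjusted p 0.000536) and by 2.48 in control sperm (adjusted p 9.37e-05). B2 passed narrowly, at −1.26 in cKO and −1.41 in control sperm (adjusted p 0.049 and 0.0353), and each call was kept in only 2 of the 8 fits that left out 1 library. Of the Stra8 line, MYSERV, an ERV2 element, had 0.392, 0.540, 0.630 and 0.346 RPM in cKO cauda sperm against 18.9, 12.9, 14.7 and 5.30 RPM in cKO testis sperm. In Stra8 controls MYSERV had 1.24, 0, 0.217 and 0.459 RPM in cauda sperm against 132, 43.6, 22.3 and 18.5 RPM in testis sperm. Its log2 change was −4.74 (SE 0.52) in cKO and −6.79 (SE 0.84) in control sperm, with adjusted p of 6.41e-06 and 1.36e-06. The cauda levels are 4, 4, 5 and 3 reads in cKO and 11, 0, 2 and 6 reads in control libraries, so MYSERV passed the filter through testis sperm, where it was high, and the size of its change is uncertain.

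The RLTR4 rows went the other way. RLTR4_MM had 133, 53.4, 199 and 762 RPM in Stra8 cKO cauda sperm against 11.7, 9.08, 11.3 and 5.66 RPM in cKO testis sperm. In Stra8 controls it had 82.0, 24.7, 215 and 153 RPM in cauda sperm against 32.8, 16.8, 9.73 and 8.19 RPM in testis sperm. Cauda and testis sperm did not overlap in cKO libraries, and in controls only cauda replicate 2 fell within the testis range. In Defb41 cKO males RLTR4_MM had 295, 142, 527 and 294 RPM in cauda sperm against 18.7, 15.7, 12.9 and 11.9 RPM in testis sperm. In Defb41 controls it had 96.0, 137, 19.7 and 205 RPM in cauda sperm against 25.2, 19.3, 18.3 and 15.9 RPM in testis sperm, with control cauda replicate 3 inside the testis range. The log2 changes were 4.94 (SE 0.75, adjusted p 4.88e-05) in Stra8 cKO, 2.82 (SE 0.59, adjusted p 0.000202) in Stra8 control, 4.41 (SE 0.60, adjusted p 1.25e-07) in Defb41 cKO and 2.54 (SE 0.68, adjusted p 0.000921) in Defb41 control sperm. Each call was kept in all 8 fits that left out 1 library.

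The internal row RLTR4I_MM rose in 3 of the 4 comparisons. In Stra8 cKO males it had 697, 268, 926 and 3976 RPM in cauda sperm against 143, 182, 120 and 103 RPM in testis sperm, a log2 change of 3.42 (SE 0.70, adjusted p 0.000548). Without cKO cauda sperm replicate 4 the change was 2.20 and still passed. In Stra8 controls it had 494, 123, 1059 and 922 RPM in cauda sperm against 621, 365, 257 and 384 RPM in testis sperm, which overlapped, and the change of 0.67 did not pass (adjusted p 0.241). In Defb41 cKO males it had 638, 523, 1452 and 912 RPM in cauda sperm against 297, 201, 188 and 120 RPM in testis sperm, without overlap, a change of 2.13 (SE 0.57, adjusted p 0.00232). In Defb41 controls it had 338, 594, 136 and 1302 RPM in cauda sperm against 343, 158, 130 and 118 RPM in testis sperm, a change of 1.66 (SE 0.57, adjusted p 0.0117) that no longer passed without control cauda sperm replicate 4 (0.92, adjusted p 0.201), control testis sperm replicate 3 (1.52, adjusted p 0.0598) or control testis sperm replicate 4 (1.49, adjusted p 0.0621). RLTR6_MM, another ERV1 LTR, also passed in Defb41 cKO sperm: it had 20.5, 16.9, 62.9 and 213 RPM in cauda sperm against 23.9, 22.5, 15 and 14.7 RPM in testis sperm, and its change of 2.04 (adjusted p 0.0064) became 0.81 (adjusted p 0.236) without cKO cauda sperm replicate 4. The epithelial miRNA markers given above were also higher in cauda than in testis sperm; their part in the RLTR4 reads was not tested.

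**Figure D3:**
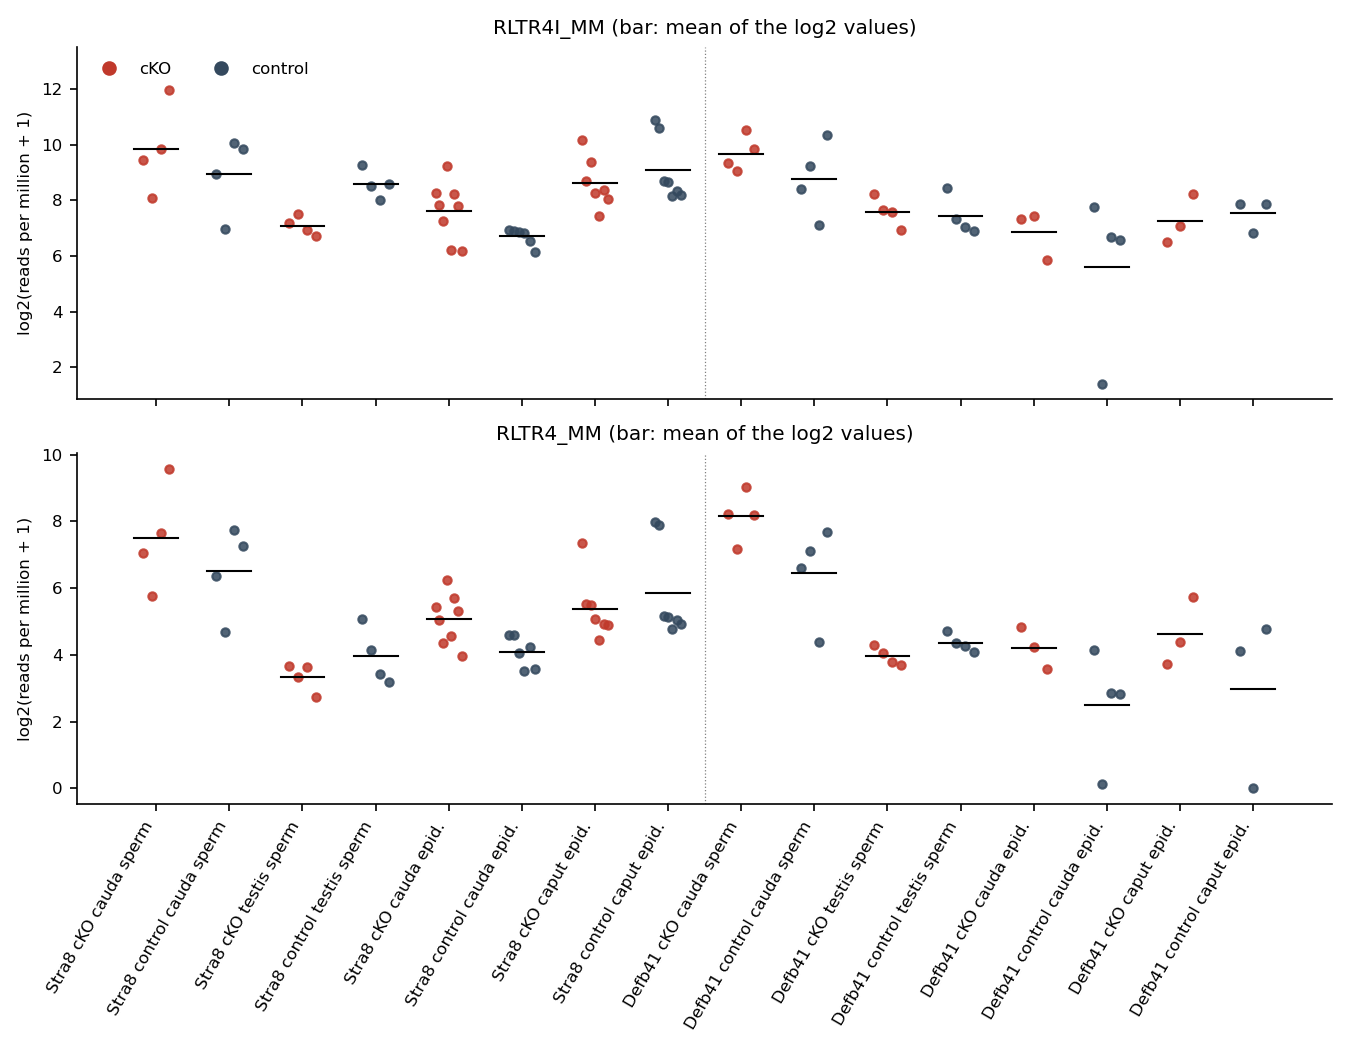
RLTR4I_MM (top) and RLTR4_MM (bottom) in each library as log2(RPM + 1), cKO in red and control in dark blue, with the mean of the log2 values as a bar. RLTR4_MM in Defb41 cKO cauda sperm (142 to 527 RPM) lies above all Defb41 testis sperm libraries, and the levels of both rows in Stra8 caput tissue spread widely, with control replicates 1 and 2 highest.

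Of the rows called lower in Defb41 cKO sperm, 63.9% (78 of 122) were also lower in Defb41 control sperm, and these 78 were 91.8% of the 85 called in controls. In the Stra8 line 21 rows were shared, 61.8% of the 34 in cKO and 75% of the 28 in controls. Between lines, 23 rows were shared by the cKO comparisons (67.6% of 34 in Stra8, 18.9% of 122 in Defb41) and 15 by the control comparisons (53.6% of 28 in Stra8, 17.6% of 85 in Defb41). The Stra8 line had fewer rows tested, since fewer rows reached 10 counts. Rows tested in both numbered 250 within the Defb41 line, 33 within the Stra8 line, 46 between the cKO and 38 between the control comparisons. Most Defb41 calls could therefore not be shared with the Stra8 line. Sharing was not computed over all rows, so these shares are not a result particular to repeats.

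**Figure D4:**
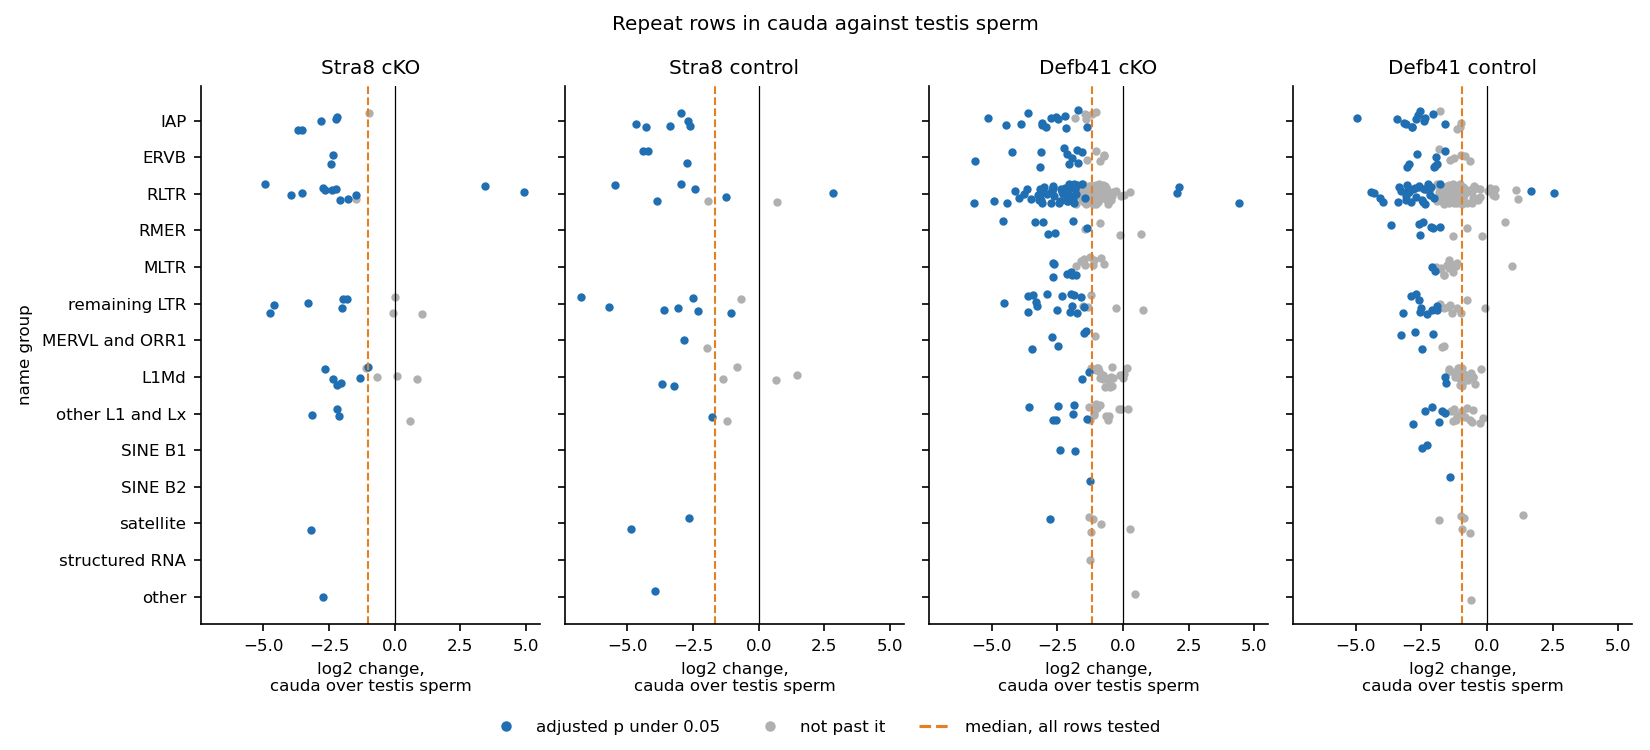
Log2 change of each repeat row tested, cauda over testis sperm, by name group in the 4 comparisons; blue points have an adjusted p under 0.05 and the dashed line marks the median of all rows tested. IAP points lie mostly left of the dashed line (medians of −2.48 in Defb41 cKO and −2.56 in Defb41 control), and RLTR4_MM is the point farthest right (4.94 in Stra8 cKO and 4.41 in Defb41 cKO).

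Cauda sperm was then set against cauda epididymis tissue of control males, to ask how the repeat reads of sperm differ from those of the tissue around them. In the Defb41 line 139 repeat rows rose and 0 fell of 144 tested, where 66.1% of all 1461 rows passed, 58.9% higher and 7.12% lower; at an unadjusted p under 0.05 the count was also 139, all of them the higher rows. Of these 144 rows, 98 reached 10 counts in no cauda epididymis library and 32 had no read there. Those 98 entered through cauda sperm, where they were high, so the count follows in large part from the filter and is no evidence of direction for all repeats; they included 18 of 25 L1Md, 13 of 14 IAP and 14 of 19 other L1 and Lx rows tested. B1, B1F and B2 were among the 98. B1 had 279, 164, 80.7 and 222 RPM in control cauda sperm and no read in the 4 cauda epididymis libraries. Its mean of 186 RPM was thus at least 746-fold higher, taking 3 counts per library as the floor. By the same floor the mean of B2 was at least 444-fold and that of B1F at least 294-fold higher. Tissue replicate 2 held only 0.135 times the repeat reads of its class table. B1 averaged 0.0824 RPM in Stra8 control cauda sperm, so its level here was not shared by sperm of the other line. With TMM factors, which moved the median of all rows to −0.11, 108 repeat rows were higher and 3 lower, and scaled to the repeat total 71 were higher and 6 lower.

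In the Stra8 line 14 rows rose and 1 fell of 18 tested, beside 78.9% of all 1106 rows (71.2% higher, 7.69% lower), so the share called was near the background. This fit held the library series as a term, and the second series was tissue only. The series was taken from the replicate numbers of the titles, which do not name a series or batch. The log2 changes and calls therefore set cauda sperm against tissue replicates 1 to 4, the first series. Of the 18, 4 reached 10 counts in no cauda epididymis library, and all 4 were among those called higher. The median change was 1.98 for repeat rows and 2.35 for all rows, and with TMM factors, which moved the median of all rows to 0.02, 4 rows were higher and 4 lower. MMERVK9E_I, an ERV2 element, had 85.9, 49.1, 52.6 and 67.8 RPM in control cauda sperm against 1.82 to 3.73 RPM in the 6 control cauda epididymis libraries. Its log2 change against the first series of tissue was 4.68 (SE 0.43, adjusted p 1.17e-08). The row that fell was MMERVK9C_I, also ERV2, with 0.900, 0.942, 1.52 and 0.688 RPM in cauda sperm against 3.94 to 9.63 RPM in tissue (−2.43, SE 0.40, adjusted p 1.08e-05). Neither row's groups overlapped. RLTR4I_MM was 2.47 higher in cauda sperm (adjusted p 0.00017), but −0.0399 with TMM factors and −0.00408 scaled to the repeat total, so it did not pass under either scaling. RLTR4I_MM itself was 66.9% of the repeat reads in control cauda sperm and 57.8% in control cauda epididymis, which by construction draws its change towards 0 under the last scaling.

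The ends of the epididymis were compared in control tissue. In the Stra8 line 0 repeat rows rose and 7 fell in cauda against caput of 16 tested, where 42.2% of all 1054 rows passed, 8.92% higher and 33.3% lower, and the medians were −1.69 for repeat rows and −0.52 for all rows. RLTR4I_MM had a lowest, median and highest level of 69.7, 114 and 122 RPM in the 6 cauda libraries against 280, 403 and 1871 RPM in the 7 caput libraries. The groups did not overlap, and the change was −2.68 (SE 0.40, adjusted p 0.00025), and −3.18 and −1.88 within the first and second series of libraries. RLTR4_MM had 10.5, 16.7 and 23.4 RPM in cauda against 26.3, 34.5 and 254 RPM in caput tissue, also without overlap (−2.21, SE 0.56, adjusted p 0.0069), with a change of 0.22 when scaled to the repeat total, most of which the RLTR4 rows make up in this tissue. The other rows called lower were ERVB4_1-I_MM, ERVB4_2-I_MM, IAPEYI, L1MdV_II and L32, a pseudogene by its label. Of the 16 rows, 2 reached 10 counts in no cauda library, and both were among those called lower. In the 13 fits without 1 library, L1MdV_II reached the filter on low counts in 8 and passed in 4. It was tested but did not pass without control cauda epididymis replicate 2, 3, 4 or 5 (adjusted p 0.0659 to 0.0771). IAPEYI reached the filter in 7 of the 13 and passed in all 7. Scaled to the repeat total, 7 rows were higher and 1 lower, and without control cauda epididymis replicate 6 the count of calls was 13. Summed muscle markers were 191049 to 450186 RPM in cauda and 40435 to 153943 RPM in caput tissue of these controls, and blood-cell markers were 453 to 1439 RPM in cauda and 80.5 to 135 RPM in caput tissue, both without overlap; their part in these calls was not tested. In the Defb41 line 0 of 21 repeat rows passed in either direction, beside 0% of all 1298 rows, with 7 at an unadjusted p under 0.05 and 1 by DESeq2. The caput group there included the shallow replicate 2, which held 471 RPM of GSAT_MM, the major pericentromeric satellite, against 0.242 and 4.12 RPM in the other 2 caput libraries. Leaving out control caput epididymis replicate 1, 2 or 3 gave 8, 1 and 2 calls.

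The comparisons of cKO with control asked whether repeat reads depend on Dgcr8 in germ cells or in the epididymis. Few repeat rows passed. In Stra8 testis sperm 1 row rose and 2 fell of 76 tested, beside 13.7% of all 1174 rows (0.681% higher, 13% lower), of which miRNA rows (77 of 261 lower) and tRNA rows (70 of 372 lower) made up most. The medians were −0.53 for repeat rows and −0.60 for all rows. With TMM factors or scaled to the repeat total the split was 2 higher and 1 lower, and by DESeq2 3 higher and 2 lower. RLTR4I_MM fell to 143, 182, 120 and 103 RPM in cKO testis sperm, against 621, 365, 257 and 384 RPM in control testis sperm. The groups did not overlap, with a log2 change of −1.57 (SE 0.31, adjusted p 0.0078) that passed in all 8 fits without 1 library. Its LTR, RLTR4_MM, changed by −0.84 (SE 0.52) and did not pass (adjusted p 0.299). MMERVK9E_I had 64.4, 56.5, 58.6 and 41.4 RPM in cKO against 173, 98.4, 87.1 and 175 RPM in control testis sperm, without overlap (−1.27, SE 0.32, adjusted p 0.0198). GSAT_MM rose, with 27.4, 72.6, 121 and 55.9 RPM in cKO against 34.3, 17.6, 17 and 10.4 RPM in control testis sperm. Only cKO replicate 1 lay within the control range of GSAT_MM, and its change was 1.81 (SE 0.50, adjusted p 0.0319).

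The calls of MMERVK9E_I and GSAT_MM were less firm. GSAT_MM passed in 4 of 8 fits without 1 library, and did not pass without cKO testis sperm replicate 3 (1.39, adjusted p 0.132) or control testis sperm replicates 2, 3 or 4 (1.76, 1.74 and 1.60, adjusted p 0.094, 0.0939 and 0.0798). MMERVK9E_I also passed in 4 of 8, and not with TMM factors (−0.96) or DESeq2 (−0.80) in place of the main scaling and test, nor without cKO testis sperm replicates 3 or 4 (adjusted p 0.0639 and 0.0588) or control testis sperm replicates 1 or 4 (adjusted p 0.0536 and 0.0549). Without cKO testis sperm replicate 3 only 1 repeat row passed. The summed level of 8 germ-cell miRNA markers was 2212 to 5261 RPM in cKO against 20161 to 26693 RPM in control testis sperm, and these markers are themselves miRNAs, whose processing needs Dgcr8; blood-cell markers overlapped, at 3562 to 19902 RPM in cKO and 8816 to 35430 RPM in control libraries. The part of cell makeup in these calls was not tested.

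In Stra8 cauda sperm 0 of 23 repeat rows passed, beside 5.59% of all 1091 rows (2.11% higher, 3.48% lower), with 4 at an unadjusted p under 0.05 and 2 higher by DESeq2. RLTR4I_MM differed by 1.18 (adjusted p 0.385), and by −0.04 without cKO cauda sperm replicate 4. Leaving out cKO cauda sperm replicate 4 gave 1 call, and leaving out cKO replicate 2 or any of control replicates 1 to 4 gave 2. In Stra8 caput epididymis 0 of 22 rows passed, beside 0% of all 1064 rows, with 1 at an unadjusted p under 0.05 and 0 by DESeq2.

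In Stra8 cauda epididymis 0 of 11 rows passed, beside 1.95% of all 1025 rows (1.07% higher, 0.878% lower), with 2 at an unadjusted p under 0.05 and 1 by DESeq2. RLTR4I_MM had a lowest, median and highest level of 72.0, 226 and 601 RPM in the 8 cKO libraries against 69.7, 114 and 122 RPM in the 6 control libraries. Of the 8 cKO libraries, 6 were above all controls, and the change was 1.29 (SE 0.34, adjusted p 0.061). RLTR4_MM had 14.6, 35.4 and 75.0 RPM in cKO against 10.5, 16.7 and 23.4 RPM in control tissue, a change of 1.18 (SE 0.33, adjusted p 0.0917). Without cKO cauda epididymis replicate 3 or 8 the count of rows passing was 2, and without cKO replicate 5 or control replicate 4 it was 1.

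In Defb41 testis sperm 0 of 274 repeat rows passed by edgeR, beside 1.5% of all 2062 rows, all of them higher, with 13 at an unadjusted p under 0.05; DESeq2 called 2 higher and 10 lower. Leaving out control testis sperm replicate 1 gave 1 call. IAPLTR3_I stood at 750, 749, 4405 and 414 RPM in cKO and 1810, 608, 551 and 454 RPM in control testis sperm, overlapping, with cKO replicate 3 and control replicate 1 above the rest.

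In Defb41 cauda sperm 0 repeat rows rose and 3 fell of 241 tested, beside 14.4% of all 1718 rows (0.349% higher and 14.1% lower, the lower ones mostly piRNA rows, 192 of 450). The median was 0.15 for repeat rows and −0.14 for all rows. ERVB5_2-LTR_MM, the LTR of an ERV2 element, had 0.731, 0.853, 0.121 and 3.09 RPM in cKO cauda sperm against 42.1, 23.6, 9.55 and 10.5 RPM in control cauda sperm. The groups did not overlap, and the change of −4.12 (SE 0.75, adjusted p 3.65e-06) passed in all 8 fits without 1 library. The levels of cKO replicates 1 to 3 are a few reads, near or under the floor of 3 counts (0.362 to 0.366 RPM). The size of this change is therefore uncertain. IAPLTR3, an IAP LTR, had 1.46, 0.731, 0.362 and 2.30 RPM in cKO against 11.8, 4.14, 1.59 and 4.55 RPM in control cauda sperm, with 1 control within the cKO range (−2.16, SE 0.74, adjusted p 0.0251). LTRIS4A, an ERV1 LTR, had 2.31, 0.853, 0.603 and 2.20 RPM in cKO against 17.1, 6.87, 4.41 and 1.42 RPM in control cauda sperm, with 1 control within the cKO range (−2.30, SE 0.73, adjusted p 0.0127).

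Neither IAPLTR3 nor LTRIS4A passed without control cauda sperm replicate 1 (−1.48 and −1.49, adjusted p 0.245 and 0.237), cKO replicate 2 (adjusted p 0.153 and 0.102) or cKO replicate 3 (adjusted p 0.101 and 0.0648), and IAPLTR3 did not without cKO replicate 1 (adjusted p 0.0681). The number of repeat rows called was 1 without cKO cauda sperm replicate 2 and 5 without control cauda sperm replicate 3. It also depended on the scaling, with 1 higher and 8 lower with TMM factors, 18 higher and 9 lower by DESeq2, and 0 higher and 9 lower when scaled to the repeat total. The 8 germ-cell miRNA markers summed to 213 to 789 RPM in cKO and 851 to 4355 RPM in control cauda sperm, without overlap. These markers are themselves miRNAs, whose processing needs Dgcr8, and their part in these calls was not tested.

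In Defb41 caput epididymis 0 of 15 rows passed, beside 0% of all 1406 rows, with 5 at an unadjusted p under 0.05 and 1 lower by DESeq2. In Defb41 cauda epididymis 0 rows rose and 1 fell of 18 tested, beside 6.36% of all 1117 rows (0.179% higher, 6.18% lower). That row, RLTR26D_MM, had 0, 0 and 0.404 RPM in cKO against 2.27, 2.05, 2.17 and 2.57 RPM in control tissue, without overlap (−4.05, SE 1.0, adjusted p 0.0491). The levels are a few reads, the row passed the filter on low counts through control tissue, and the call held in 1 of 7 fits without 1 library, that without control cauda epididymis replicate 1, where 2 rows passed. Without any of cKO replicates 1 to 3 or control replicates 2 to 4, no repeat row passed, with adjusted p for RLTR26D_MM of 0.0506 to 0.197. No row passed with TMM factors or when scaled to the repeat total. Germ-cell markers summed to 39.6 to 119 RPM in cKO and 328 to 605 RPM in control cauda epididymis, without overlap. These too are miRNAs, whose processing needs Dgcr8, and their part in the call was not tested.

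**Figure D5:**
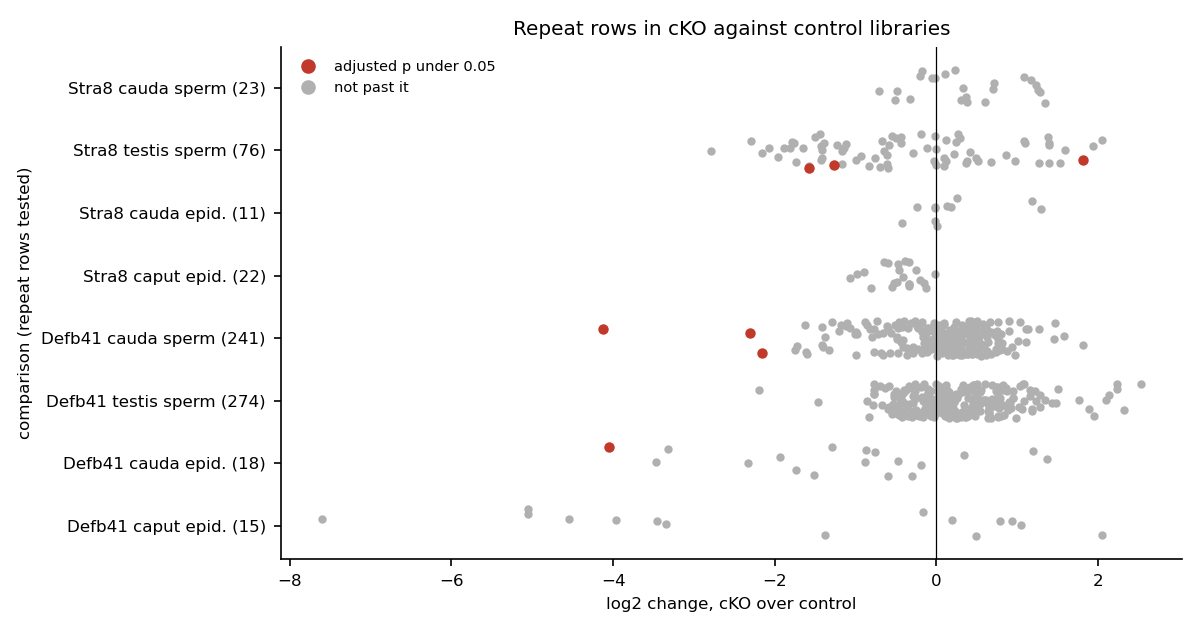
Log2 change of each repeat row tested, cKO over control, in the 8 sources, with the number of rows tested in brackets; red points have an adjusted p under 0.05. The 7 red points are GSAT_MM, MMERVK9E_I and RLTR4I_MM in Stra8 testis sperm, ERVB5_2-LTR_MM, LTRIS4A and IAPLTR3 in Defb41 cauda sperm and RLTR26D_MM in Defb41 cauda epididymis.

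An interaction term tested whether cKO and control differed to another extent in cauda than in testis sperm. In the Stra8 line 0 of 81 repeat rows passed, beside 2.9% of all 1276 rows (2.51% higher, 0.392% lower), with 9 at an unadjusted p under 0.05 and 0 by DESeq2. In the Defb41 line 0 rows were higher and 2 lower of 280, beside 14.5% of all 2161 rows (0.0925% higher, 14.4% lower), and the split was 2 higher and 3 lower with TMM factors and 8 higher and 3 lower by DESeq2. ERVB5_2-LTR_MM had an interaction of −3.70 (SE 0.88, adjusted p 0.0051), which passed in all 16 fits without 1 library and rests on the low cKO cauda levels given above. In testis sperm it had 69.6, 63.8, 61.0 and 48.1 RPM in cKO against 104, 73.7, 75.9 and 71.3 RPM in control libraries, so the cKO levels were below the controls there too, by less. MLTR31C_MM, an ERV2 row, had an interaction of −2.92 (SE 0.99, adjusted p 0.0433), passing in 6 of 16 fits. It had 8.40, 16.2, 4.34 and 3.49 RPM in cKO and 21.3, 19.9, 6.0 and 2.08 RPM in control cauda sperm, and 62.3, 11.8, 37.4 and 17.2 RPM in cKO and 13.3, 6.19, 2.70 and 3.48 RPM in control testis sperm. The 10 libraries without which MLTR31C_MM missed the threshold (adjusted p 0.0583 to 0.155) were cKO cauda sperm replicates 1, 3 and 4, control cauda sperm replicates 1 and 2, cKO testis sperm replicates 1 and 3 and control testis sperm replicates 2, 3 and 4. The count of rows was 5 without control testis sperm replicate 1 and 1 without any of cKO cauda sperm replicates 1, 3 or 4, cKO testis sperm replicates 1 or 3, control cauda sperm replicate 1 or control testis sperm replicate 4.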

How the data were processed

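Small RNA of 18 to 40 nt was isolated from a gel and sequenced, per the labels' protocols. The submitters' processing notes list the tools Bowtie2 and RSEM, with no versions, and the build mm10. The row tables hold whole-number read counts per small RNA row for 82 libraries, as deposited by the authors. A class table from the authors holds counts per RNA class and an mRNA column of estimated counts, which was not used. How reads matching many repeat copies were assigned is not given in the sources used here. The 8 libraries of a second series of Defb41 cauda sperm were left out, since their repeat totals disagreed most with the class table, and so was 1 library whose title and genotype label conflict.

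RPM is the count divided by the table total of the library, times 1000000. Tests used edgeR 4.0.16 (glmQLFit, glmQLFTest; R 4.3.3) on all rows, keeping rows that reached 10 counts in a number of libraries equal to the size of the smaller group, Benjamini-Hochberg adjustment over all rows tested and a threshold of 0.05; SE is the size of the log2 change over the square root of F. Fits with Stra8 epididymis libraries had the library series as a term, taken from the replicate numbers of the titles. In cauda sperm against cauda epididymis the second series held tissue only, so the changes set sperm against tissue of the first series. Alternatives were TMM factors, DESeq2 1.42.0, no filter, the class table total, the repeat total, a replicate block and leaving out each library. Leaving out a library of the smaller group, or of either group where sizes were equal, also lowered the number of libraries that had to reach 10 counts. Such fits can test other rows, so their counts of calls do not reflect the library alone. Scripts were tested on simulated data. Figures used Python 3.11.15 and matplotlib 3.10.9.

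The members and lists were chosen with earlier results of these data known. Rows named were the 12 with the highest mean over groups; in each comparison all rows called where at most 10 were, and otherwise up to 6 with the largest changes per direction among called rows with a mean of at least 5 RPM in a group; and a list of family names, most of which the tables spell otherwise (IAPLTR1_Mm, GSAT_MM and RLTR4_MM matched). The text gives a selection of these, and values of L1MdA_II and B2 in cauda against testis sperm were added with their results known. Name groups departed from the planned list where a row's own class label placed it elsewhere: MLTR rows formed a group, L32 went to others, and the remaining LTR rows were split by prefix. Same-numbered libraries did not deviate together in every pair of any comparison (correlations from −0.478 to 0.781). The labels do not say whether equal numbers mark the same males, and so few pairs cannot exclude it. The main fits used no block. Counting error at low reads limits rows near the floor of 3 counts.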

Additional observations from a re-analysis of the deposited data

Results flagged for a closer look

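Single libraries stood far from the rest of their group in 11 of the 91 combinations of group and quantity examined, by a rule whose critical value is set so that chance gives about 1 in 20 in a single group; the quantities share libraries. The repeat sum was 19307 RPM in Defb41 control testis sperm replicate 1 (others 9740 to 11236), 1633 RPM in Stra8 cKO caput epididymis replicate 2 (others 264 to 841) and 721 RPM in Stra8 cKO cauda epididymis replicate 4 (others 154 to 414). The endogenous murine leukaemia virus rows led the epididymis cases: RLTR4I_MM was 601 RPM in Stra8 cKO cauda epididymis replicate 4 (others 72.0 to 308) and RLTR4_MM was 162 RPM in Stra8 cKO caput epididymis replicate 2 (others 20.9 to 44.7). IAPLTR3_I was 4405 RPM in Defb41 cKO testis sperm replicate 3 (others 414 to 750.1) and 1810 RPM in Defb41 control testis sperm replicate 1 (others 454 to 608). At low levels, IAPEZI was 1.53 RPM in Stra8 control testis sperm replicate 4 (others 0), MERVL was 2.38 RPM in Stra8 control caput epididymis replicate 2 (others 0.122 to 0.895) and 0.188 RPM in Stra8 control cauda epididymis replicate 2 (others 0; a level under the floor of 3 counts, 0.282 RPM), and the satellite GSAT_MM was 4.99 RPM in Stra8 cKO cauda epididymis replicate 8 (others 0 to 2.32).

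The interaction of genotype with cauda or testis sperm in the Defb41 line passed in edgeR for ERVB5_2-LTR_MM (−3.70) and MLTR31C_MM (−2.92). The first rests on cKO cauda levels of a few reads, so its size is uncertain. MLTR31C_MM passed narrowly (edgeR adjusted p 0.0433) and in only 6 of 16 fits without 1 library.

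In the second series of Defb41 cauda sperm, which entered no comparison, cKO replicate 6 reached 61836 RPM on repeat rows, against 15116 to 32657 RPM in the controls of that series; the other 3 cKO libraries had 13251, 7117 and 23150 RPM, so the groups overlapped and 2 cKO libraries were below every control. The row tables of that series gave 10.9 to 37.3 times the repeat reads of the class table.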

How the results depend on the processing

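Counts of repeat rows called are given as all calls, higher and lower together. Those without 1 library can also reflect the looser filter described above. Stra8 testis sperm, cKO against control (3), had 5 by DESeq2, and 1 to 3 without 1 library. Stra8 cauda sperm, cKO against control (0), had 2 by DESeq2, 5 with no filter and 0 to 2 without 1 library. Stra8 cauda epididymis, cKO against control (0), had 1 by DESeq2, 2 with no filter and 0 to 2 without 1 library. Cauda against testis sperm had 60 with no filter in Stra8 cKO (36), 19 with TMM factors and 86 with no filter in Stra8 controls (29), and 60 scaled to the repeat total in Defb41 cKO (125). Without 1 library these counts were 37 to 46 in Stra8 cKO, 31 to 36 in Stra8 control, 92 to 146 in Defb41 cKO and 63 to 111 in Defb41 control sperm. Cauda against caput epididymis had 95 with no filter and 5 to 13 without 1 library in Stra8 controls (7), and 1 by DESeq2 and 0 to 8 without 1 library in Defb41 controls (0). Cauda sperm against cauda epididymis had 8 with TMM factors, 7 by DESeq2, 40 with no filter and 5 scaled to the repeat total in Stra8 controls (15), and 267 with no filter and 77 scaled to the repeat total in Defb41 controls (139). Defb41 cKO against control had 12 by DESeq2 and 0 to 1 without 1 library in testis sperm (0), 9 with TMM factors, 27 by DESeq2, 9 scaled to the repeat total and 1 to 5 without 1 library in cauda sperm (3), 1 by DESeq2 in caput epididymis (0), and 0 with TMM factors, 2 by DESeq2, 0 scaled to the repeat total and 0 to 2 without 1 library in cauda epididymis (1). The Defb41 interaction (2) had 5 with TMM factors, 11 by DESeq2, 1 scaled to the repeat total and 1 to 5 without 1 library. With the replicate block the count was 2 in Stra8 cauda sperm, 8 in Defb41 cauda sperm, 0 in Defb41 cauda epididymis, 131 for cauda against testis sperm of Defb41 controls and 4 for the Defb41 interaction. The block moved no other count by over 1.5 times, and whether equal numbers mark the same males is not known. Signs that changed were, scaled to the repeat total, L1MdV_II (0.58), L32 (0.50) and RLTR4_MM (0.22) in cauda against caput of Stra8 controls, and RLTR4I_MM in cauda sperm against cauda epididymis of Stra8 controls (−0.0399 with TMM factors, −0.00408 scaled to the repeat total). RLTR4 rows make up most repeat reads of these samples, so scaling to the repeat total shifts every row with them by construction, and sign changes under it say nothing of direction. The cause of the other differences was not tested. The mean repeat sum was 966 RPM in Stra8 cKO testis sperm and 239 RPM in Stra8 control cauda epididymis by the class table. Without the RLTR4 rows, an alternative chosen after seeing the data, it was 718 RPM in Stra8 cKO testis sperm, 203 in Stra8 control cauda sperm, 3284 in Defb41 cKO cauda sperm, 117 in Stra8 cKO caput, 73.7 in Defb41 cKO caput, 59.4 in Stra8 cKO cauda epididymis, 59.9 in Stra8 control cauda epididymis and 44.2 in Defb41 cKO cauda epididymis. Of the log2 changes of named rows, 502 fits without 1 library kept their call and 39 did not, leaving out fits in which a row missed the filter on low counts. Few repeat rows reach 10 counts in the Stra8 line and in epididymis, where repeat levels are low (medians of 1022 RPM in Stra8 sperm, 393 in Stra8 epididymis and 228 in Defb41 epididymis, beside 6512 in Defb41 sperm) at similar median library totals.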
